A study of Mus musculus with 12 samples.

Results

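Hmgn2-/- mouse embryonic stem cells (mESCs) were compared directly with Hmgn1-/- mESCs by bulk RNA-Seq, a measure of the transcripts of every gene summed over a whole culture. The comparison rests on 6 of the 12 libraries of the series, 3 of each genotype, chosen by the genotype in their labels, and no WT library entered the fit. It asks which genes separate the line with an edited Hmgn1 from the line with an edited Hmgn2. WT and Hmgn1-/-Hmgn2-/- mESCs, with 3 libraries each, are given beside the results to show on which side of WT a gene stood.

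All lines derive from v6.5, a male mESC line grown on gelatin in medium with LIF, the cytokine that keeps these cells undifferentiated. The edited alleles are homozygous. Exon 3 of Hmgn1 has lost 1 bp in the Hmgn1-/- line, and exon 4 of Hmgn2 has gained 1 bp in the Hmgn2-/- line. The double knockout was derived from the Hmgn2-/- line by editing Hmgn1 in it. Each line was grown from a single edited cell, so that genotype and clone cannot be told apart in any comparison here, and the p-values measure the spread between replicate cultures of single clones. Because the RNA came from whole cultures, fewer cells expressing a gene and less of its RNA per cell cannot be told apart either.

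HMGN1 and HMGN2 have no known enzymatic activity and attach to nucleosomes by a short, positively charged domain. Their stay on chromatin is brief, and they compete there with the linker histone H1, which compacts the fibre. Their nucleosome-binding domains are closely related, and the proteins can stand in for each other in part, which makes the direct comparison of the single knockouts informative.

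The guide RNAs that directed Cas9 to the genes are shown because they fix where each edited allele lies. Capitals mark the bases that match the exon, on the strand opposite to the transcript, and the lower-case bases did not match the exon and were not placed here.
Hmgn1 guide: acttacGGCCGACAGCCTCG
Hmgn2 guide: aggctggcttacCTTCGCAG
Both genes lie on the minus strand of GRCm38 (mm10). The Hmgn1 guide matched the last 14 bases of exon 3 of transcript Hmgn1-201, at chr16:96127311-96127324, within a coding exon of 30 bp that spans 96127311 to 96127340. The Hmgn2 guide matched the last 8 bases of a coding exon of 51 bp, at chr4:133966429-133966436. That exon spans 133966429 to 133966479 and is exon 4 of transcript Hmgn2-203 and exon 5 of transcript Hmgn2-202. The 3 exon bases that follow the guide are CGG for Hmgn1 and GGG for Hmgn2, the NGG that Cas9 requires next to its target. Both matches thus reach the end of a coding exon.

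The libraries held 25953244, 21059862 and 21993042 counts in Hmgn1-/- mESCs and 25908890, 26486535 and 17337908 in Hmgn2-/- mESCs, with 16311 to 16609 genes detected per library. Hmgn2-/- replicate 3 was the shallowest library and stood apart from the other two of its group. The median size of the log2 difference per gene was 0.13 between Hmgn2-/- replicates 1 and 2, but 0.25 and 0.19 between each of them and replicate 3. In Hmgn1-/- mESCs the same measure ran from 0.12 to 0.14. Between libraries of different genotype it ran from 0.10 to 0.22, with the 2 largest values, 0.20 and 0.22, in pairs that held Hmgn2-/- replicate 3 and 0.17 at most in pairs without it.

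The mESC label was checked against marker genes. Levels are CPM with TMM scaling, edgeR's correction for composition, over all 12 libraries, and they are not corrected for gene length. All 8 mESC markers were above 100 CPM in each of the 6 libraries, and their summed level was 5609 to 6776 CPM. Pou5f1, the transcription factor that defines pluripotent cells, was the most abundant of them at 1875 CPM. Markers of fibroblasts, the usual feeder cells, summed to 5.20 to 5.94 CPM. Among these, Postn and Lum had 0 counts in the 6 libraries and Thy1 was the most abundant at 3.72 CPM. Macrophage markers summed to 7.71 to 11.7 CPM, 86.7% of it from Cd68. Primitive endoderm markers summed to 40.1 to 60.7 CPM, led by Gata4, and trophoblast markers to 30.5 to 36.7 CPM, of which 96.2% came from Tfap2c. Neural markers summed to 62.8 to 73.8 CPM, with Nes the most abundant at 34.2 CPM. Of these lists, only the mESC and neural markers held genes with an unadjusted p under 0.05 between the genotypes, 2 of 8 and 1 of 3 tested. Over all genes tested the share was 3.20%.

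The targeted genes were examined first. Hmgn1 stood at 138, 139 and 141 CPM in Hmgn1-/- mESCs and at 545, 556 and 640 CPM in Hmgn2-/- mESCs. Hmgn2 stood at 105, 113 and 109 CPM in Hmgn1-/- mESCs and at 50.7, 54.5 and 53.7 CPM in Hmgn2-/- mESCs. Each gene was thus lower in the line that carries its edit, with no overlap between libraries. The log2 FC, positive where a gene was higher in Hmgn2-/- mESCs, was 2.06 for Hmgn1 (SE 0.08, adjusted p = 5.7e-07) and -1.04 for Hmgn2 (SE 0.07, adjusted p = 4.6e-05). Both p-values are from edgeR's quasi-likelihood test after Benjamini-Hochberg adjustment. The 6 tested genes nearest to Hmgn1 had a log2 FC of -0.05 to 0.56 and those nearest to Hmgn2 of -0.09 to 0.01, none with an adjusted p under 0.05. For the other genes of the high mobility group family the intervals bounded the difference. The log2 FC was 0.25 for Hmga2, 0.08 for Hmga1, 0.02 for Hmgb1, 0.03 for Hmgb2, -0.14 for Hmgb3, 0.00 for Hmgn3 and 0.18 for Hmgn5, and the intervals of these 7 genes lay between -1 and 1. With single libraries left out, Hmga2 ran from 0.13 to 0.35, Hmgn5 from 0.04 to 0.25 and Hmgb3 from -0.22 to -0.06. The other 4 took both signs, Hmga1 between -0.05 and 0.26, Hmgb1 between -0.05 and 0.07, Hmgb2 between -0.06 and 0.10 and Hmgn3 between -0.10 and 0.09.

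Over all genes the single knockouts were close to each other. Differentially expressed genes (DEGs) were those with an adjusted p under 0.01 and a log2 FC of at least 1 in size, and 24 of 13648 genes tested met this (0.176%), 8 of them higher in Hmgn2-/- mESCs (0.0586%) and 16 lower (0.117%). The lower ones were 10 when Hmgn2-/- replicate 2 was left out. Without the fold limit, 48 genes had an adjusted p under 0.01 (0.352%), one under 0.05 by 64 (0.469%), and an unadjusted p under 0.05 by 437 (3.20%). The libraries of the genotypes did not overlap in 1101 genes (8.07%). A p that misses a threshold does not show that a gene is alike in both lines, so 95% confidence intervals were read as well. The interval lay wholly between -1 and 1 for 12453 genes (91.2%) and wholly within a fold of 1.5 for 10381 (76.1%). Of the 11338 genes that averaged 50 counts or more, 11234 (99.1%) were bounded within a fold of 2 and 10311 (90.9%) within a fold of 1.5. The median interval reached 0.26 to either side of the log2 FC, and the median size of the log2 FC was 0.07. The interval lay wholly beyond a fold of 2 for 9 genes: Grb10, Peg13, Nap1l5, Slc38a3 and Gnat1, which were lower in Hmgn2-/- mESCs, and Hmgn1, C1qtnf1, Nnat and Dock11, which were higher.

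**Figure D1:**
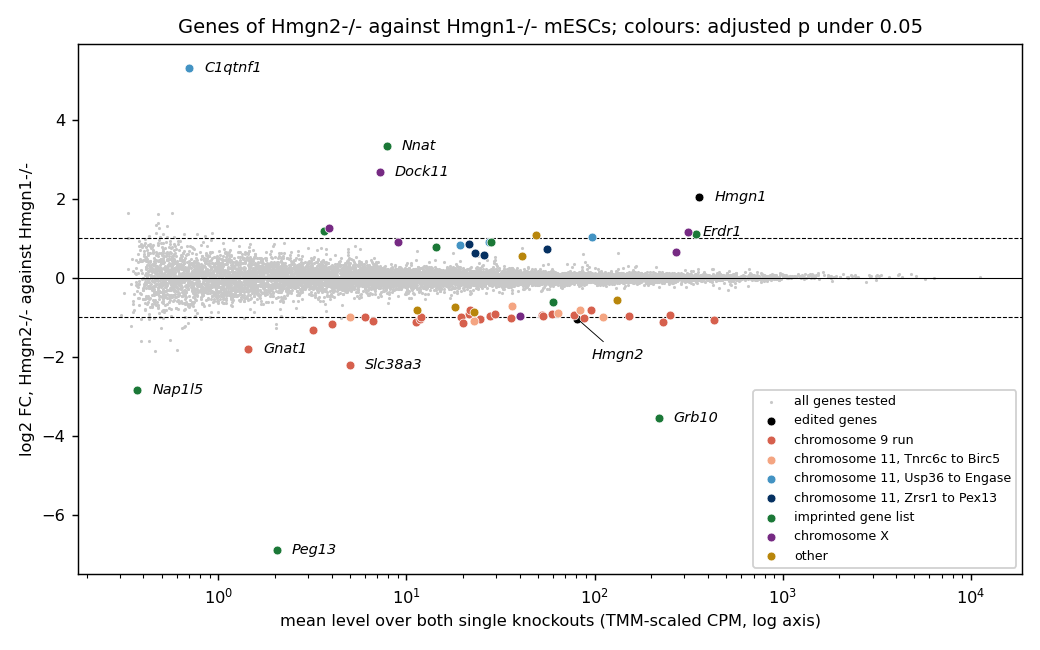
Log2 FC of Hmgn2-/- against Hmgn1-/- mESCs plotted over the mean TMM-scaled CPM of both genotypes (log axis), one point per tested gene, with the 64 genes at an adjusted p under 0.05 coloured by kind. Dashed lines mark a log2 FC of 1 in either direction, and the genes of the chromosome 9 run form a narrow band near -1 over a wide range of levels.

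The DEGs fell into few kinds, which were drawn up after their values were seen. They were the 2 edited genes, 12 neighbouring genes on chromosome 9, 3 genes near the end of chromosome 11, 4 genes of the imprinted gene list, 2 genes of chromosome X and D7Ertd715e. Position along the chromosomes was described by runs, stretches of at least 3 genes with an adjusted p under 0.05 in a single direction and at most 10 tested genes between neighbours. There were 4 such runs, which held 41 of the 64 genes with an adjusted p under 0.05 and 15 of the 24 DEGs. As the runs were picked for their values they are described without a test.

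The longest run lay on chromosome 9 and was lower in Hmgn2-/- mESCs. It reached from Cacna2d2, at 107399733, to Usp4, which ends at 108392545, a length of 992.8 kb in GRCm38. All 36 genes tested in it had a negative log2 FC, 27 of them with an adjusted p under 0.05, 24 with one under 0.01, and 12 were DEGs. The genotypes did not overlap in 35 of the 36, the exception being Mst1, which had a mean of 11.2 counts, and the interval left out 0 in 34. The summed level of the 36 genes was 2296, 2378 and 2425 CPM in Hmgn1-/- mESCs and 1133, 1187 and 1215 CPM in Hmgn2-/- mESCs, a ratio of 0.498. In WT mESCs the sum was 2198, 2344 and 2336 CPM, and in the double knockout, which descends from the Hmgn2-/- line, it was 1148, 1172 and 1158 CPM. Libraries of the Hmgn2-/- line and of the line made from it thus formed a low group, and WT and Hmgn1-/- libraries a high one.

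What set this run apart from scattered DEGs was its evenness. The median log2 FC was -0.98, and the middle 50% of genes lay between -1.07 and -0.92, although the genes differ widely in level. Gpx1, a glutathione peroxidase that removes peroxides, stood at 522, 587 and 637 CPM in Hmgn1-/- mESCs and at 235, 276 and 323 CPM in Hmgn2-/- mESCs (log2 FC -1.06, SE 0.12, adjusted p = 0.0011 by edgeR's quasi-likelihood test after Benjamini-Hochberg adjustment). Gnai2, an inhibitory G protein subunit, stood at 304, 318 and 325 CPM against 136, 145 and 151 CPM (log2 FC -1.13, SE 0.07, adjusted p = 3.1e-05, same test). Rhoa, a small GTPase of the actin cytoskeleton, stood at 325, 334 and 333 CPM against 170, 171 and 175 CPM. In each of these genes every Hmgn2-/- library was near 50% of the Hmgn1-/- level. The log2 FC of Rhoa was -0.94 (SE 0.06, adjusted p = 4.4e-05, same test), short of the fold limit although its p was among the lowest.

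The limit of 1 on the log2 FC therefore ran through the middle of the run. Besides Gpx1 and Gnai2, the DEGs were Usp4 (a deubiquitinase, log2 FC -1.02), Nprl2 (part of the GATOR1 complex that restrains mTORC1, -1.12), Tusc2 (-1.03) and Rassf1 (-1.004), both known as tumour suppressors in the matching human region, Hyal2 (a hyaluronidase, -1.01), Nat6 (an acetyltransferase, -1.08), Camkv (-1.14), Rnf123 (an E3 ubiquitin ligase, -1.05), Slc38a3 and Gnat1. Another 12 genes had an adjusted p under 0.01 and a smaller fold, among them the dystroglycan gene Dag1 (-0.97), the splicing regulator Rbm6 (-0.94), the replication-linked ubiquitin ligase Traip (-0.97), Ip6k1 (-0.93), Tmem115 (-0.92) and the glycine cleavage gene Amt (-0.96). Leaving out single libraries ended calls through the fold limit in some genes and through the adjusted p in others: 9 of the 12 DEGs lost the call without at least 1 library. There were 4 such losses without Hmgn1-/- replicate 1, 5 without replicate 2 and 5 without replicate 3, 6 without Hmgn2-/- replicate 1, 7 without replicate 2 and 0 without replicate 3. The lost genes kept log2 FCs of -1.89 to -0.97, -1.69 to -1.01, -1.83 to -0.97, -1.83 to -0.96 and -1.77 to -0.92, in that order. Gnat1, for instance, lost the call in each of these 5 fits at log2 FCs of -1.89 to -1.69. Counting genes that were added, the run held 6 DEGs without Hmgn2-/- replicate 2 and 7 without Hmgn1-/- replicate 2. The median over the run moved only from -1.01 to -0.97 in the same fits.

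Mst1 lay farthest above the band, at a log2 FC of -0.14 (interval -0.98 to 0.70) on a mean of 11.2 counts. A pair of neighbours lay farthest below it. Slc38a3, a glutamine transporter, stood at 8.86, 8.36 and 7.61 CPM in Hmgn1-/- mESCs and at 1.80, 1.89 and 1.60 CPM in Hmgn2-/- mESCs (log2 FC -2.21, SE 0.16, adjusted p = 4.6e-05 by edgeR's quasi-likelihood test after Benjamini-Hochberg adjustment). Its WT level was 4.94, 3.45 and 2.95 CPM, which lies between the knockouts, and against WT mESCs its log2 FC was 1.12 in Hmgn1-/- and -1.09 in Hmgn2-/- mESCs. Gnat1, the alpha subunit of rod transducin, stood at 1.99, 2.58 and 2.15 CPM against 0.652, 0.606 and 0.654 CPM (log2 FC -1.80, SE 0.25, adjusted p = 0.0056, same test). It rests on a mean of 32.8 counts per library. Nat6 overlaps both Hyal1 and Hyal3 on the same strand, so their separate values are uncertain.

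The edges of the run were sharp on the side of Cacna2d2. The 5 tested genes before it, Dock3, Mapkapk3, Cish, Hemk1 and 6430571L13Rik, had a median log2 FC of 0.14 (from -0.19 to 0.63). On the far side, 1700102P08Rik had a log2 FC of -0.96 on a mean of 16.3 counts, with an interval of -1.96 to 0.05. Beyond it Klhdc8b had -0.40, Ccdc36 -0.31, Ccdc71 -0.08 and Lamb2 -0.07, and Usp19 after them had -0.01. Over the whole chromosome, with 774 genes tested, the median log2 FC was 0.00. Among 11116 windows of 10 successive genes over the genome, formed from genes that averaged 50 counts or more, the lowest median, -1.06, lay in this run, and the windows that held no gene of any run had medians of -0.18 to 0.17.

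**Figure D2:**
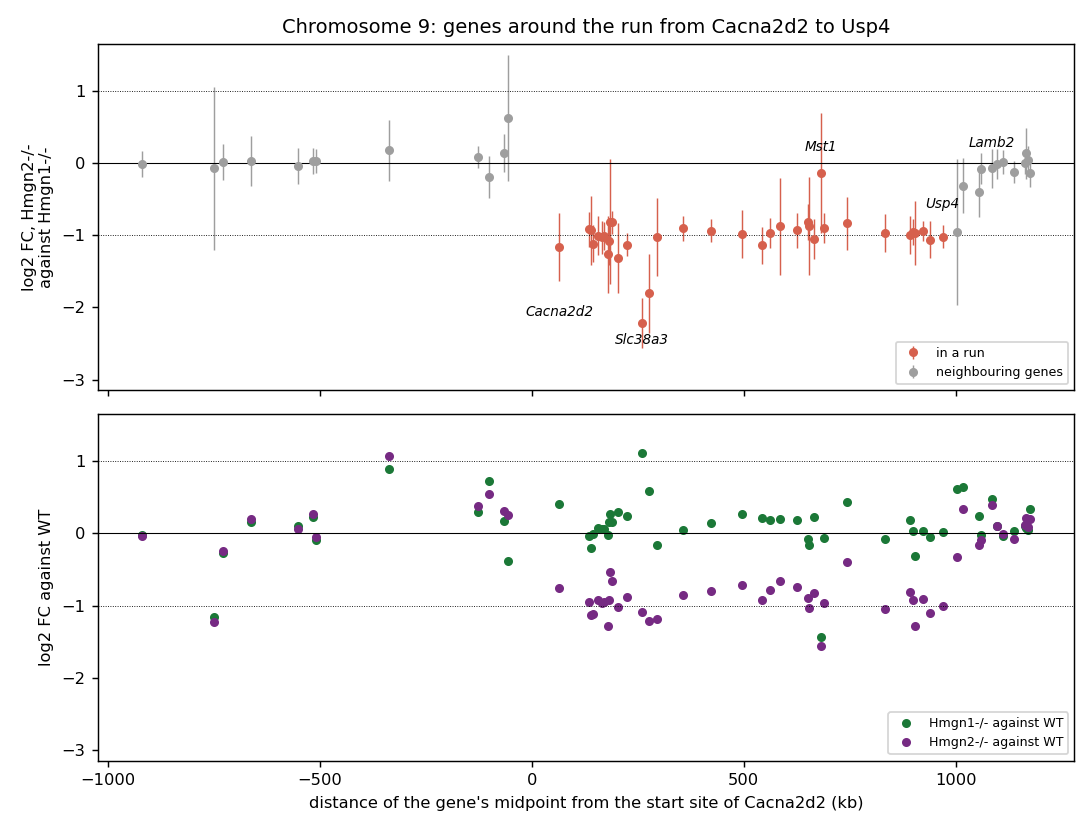
Upper panel: log2 FC of Hmgn2-/- against Hmgn1-/- mESCs with 95% confidence intervals for the genes around the run from Cacna2d2 to Usp4, plotted by the distance of each gene's midpoint from the start site of Cacna2d2 (kb). Lower panel: log2 FC of each single knockout against WT mESCs at the same positions, where the Hmgn2-/- points drop to a median of -0.92 across the run and the Hmgn1-/- points keep a median of 0.07.

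The end of chromosome 11 held a pair of runs of opposite sign. The first, from Tnrc6c (start 117653703) to Birc5 (end 117855743), covered 202 kb and was lower in Hmgn2-/- mESCs. All 7 genes tested in it had a negative log2 FC with no overlap between the genotypes, 6 had an adjusted p under 0.05, 5 had one under 0.01 and 1 was a DEG. Their summed level was 423.8, 425.8 and 420.6 CPM in Hmgn1-/- mESCs and 213.7, 226.9 and 241.3 CPM in Hmgn2-/- mESCs, a ratio of 0.537. WT mESCs stood with the Hmgn1-/- line at 415.8, 415.8 and 417.7 CPM, and the double knockout with the Hmgn2-/- line at 214.7, 239.6 and 221.4 CPM. The DEG was Tmc6, a transmembrane channel-like gene, at 34.4, 29.8 and 29.7 CPM against 15.4, 14.2 and 14.4 CPM (log2 FC -1.09, SE 0.10, adjusted p = 0.00035 by edgeR's quasi-likelihood test after Benjamini-Hochberg adjustment). Birc5, which encodes survivin, a subunit of the chromosomal passenger complex in mitosis, stood at 146, 139 and 156 CPM against 67.3, 69.2 and 87.2 CPM (log2 FC -0.98, SE 0.10, adjusted p = 0.00087, same test). It crossed the fold limit without Hmgn1-/- replicate 2 or without Hmgn2-/- replicate 3, the latter at -1.11. Tk1, the thymidine kinase of the nucleotide salvage pathway, had a log2 FC of -0.82, Tnrc6c, a partner of Argonaute proteins, -0.90, and Syngr2 -0.72. Tmc8 had -1.002 and an adjusted p of 0.045 (same test). With the replicate number as a block, and by DESeq2, Tmc8 was a DEG too.

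The second run, from Usp36 (start 118259651) to Engase (end 118489209), covered 229.6 kb and was higher in Hmgn2-/- mESCs, and here the Hmgn1-/- line was the one that departed from WT. All 5 genes tested in it had a positive log2 FC without overlap. Their summed level was 102.8, 101.3 and 95.1 CPM in Hmgn1-/- mESCs, 211.1, 194.8 and 186.3 CPM in Hmgn2-/- mESCs and 179.9, 197.4 and 187.2 CPM in WT mESCs, so that the ratio of Hmgn2-/- to Hmgn1-/- mESCs was 1.98. In the double knockout, whose Hmgn1 was edited separately, it was 203.6, 191.8 and 189.6 CPM, at the level of WT and Hmgn2-/- libraries. Usp36, a deubiquitinase of the nucleolus, stood at 66.5, 65.7 and 59.1 CPM against 146, 129 and 117 CPM (log2 FC 1.04, SE 0.10, adjusted p = 0.00033 by edgeR's quasi-likelihood test after Benjamini-Hochberg adjustment). It fell short of the fold limit without Hmgn1-/- replicate 3, at 0.99, and without Hmgn2-/- replicate 1, at 0.95. Cant1, a nucleotidase of the secretory pathway, had a log2 FC of 0.90, Engase, a cytosolic glycosidase, 0.82, and Timp2, an inhibitor of metalloproteinases, 0.73.

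C1qtnf1, a secreted C1q-related protein, stood apart within that run. It had 2 counts over the 3 Hmgn1-/- libraries and 93 over the 3 Hmgn2-/- libraries, a ratio of 46.2 with a 95% counting interval of 12.4 to 387. Its levels were 0.038, 0 and 0.046 CPM against 1.42, 1.10 and 1.60 CPM, and 1.69, 1.64 and 1.18 CPM in WT mESCs. The fitted log2 FC of 5.31 (SE 0.54, adjusted p = 0.00076 by edgeR's quasi-likelihood test after Benjamini-Hochberg adjustment) depends on the prior count added to so few reads. Such intervals cover counting error only, and reads copied from 1 molecule cannot be recognized.

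Between these runs lay genes whose values against WT mESCs were low in both lines. Pgs1, at 66.4, 67.3 and 67.4 CPM in WT mESCs, stood at 42.9, 40.6 and 39.9 CPM in Hmgn1-/- and 39.5, 38.9 and 39.9 CPM in Hmgn2-/- mESCs. Its log2 FC against WT mESCs was -0.70 and -0.76, and the direct log2 FC was -0.06. Dnahc17 had -0.73 and -1.06 against WT mESCs, on a mean of 46.2 counts in the direct comparison. Cyth1, on the other side, had -0.82 in Hmgn1-/- and -0.22 in Hmgn2-/- mESCs. Along this stretch the Hmgn2-/- line was low from 2900041M22Rik (-0.97 against WT mESCs) to Dnahc17 and the Hmgn1-/- line from Pgs1 to Engase, with Socs3 (0.17 and 0.05) and Tha1 (0.87 and 0.02) as exceptions. The values of both lines share the WT libraries, and these genes were named after their values were seen.

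**Figure D3:**
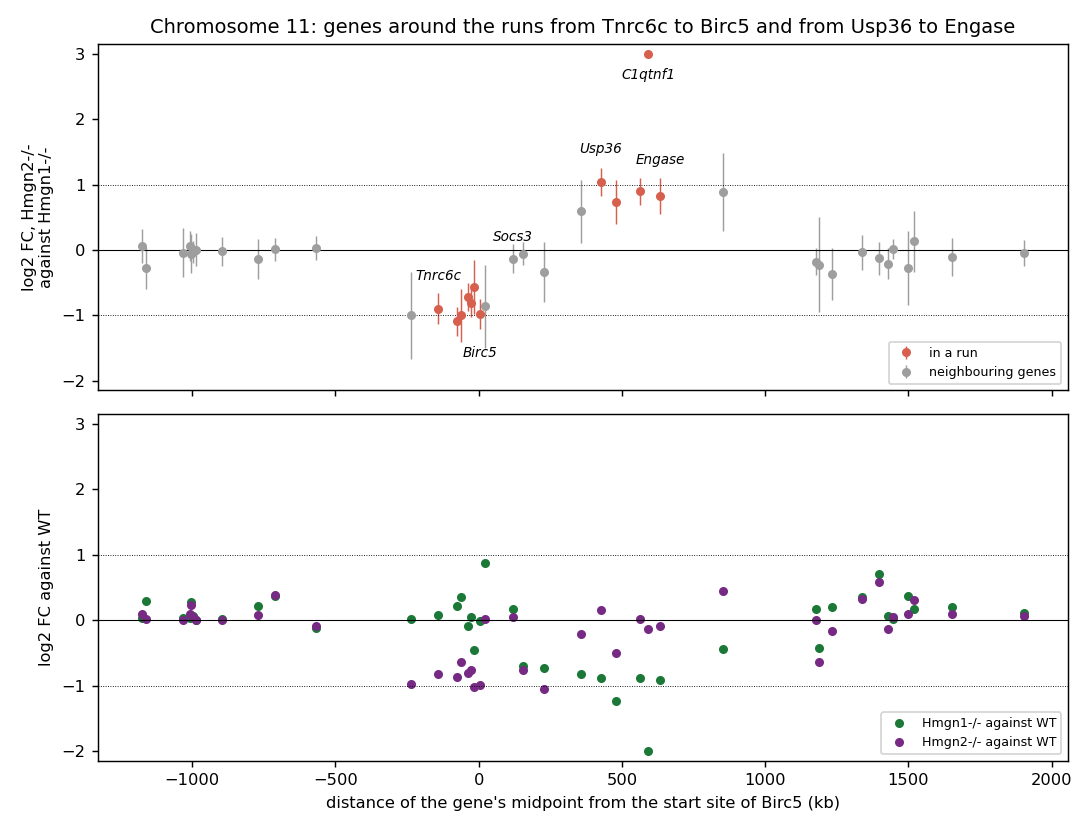
Upper panel: log2 FC of Hmgn2-/- against Hmgn1-/- mESCs with 95% confidence intervals for the genes around the runs near the end of chromosome 11, by the distance of each gene's midpoint from the start site of Birc5 (kb). C1qtnf1 is drawn at the upper edge in place of 5.31, and its Hmgn1-/- point at the lower edge in the lower panel. Lower panel: log2 FC of each single knockout against WT mESCs, low in Hmgn2-/- mESCs over the first run, low in Hmgn1-/- mESCs over the second and low in both lines at Pgs1 and Dnahc17.

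**Figure D4:**
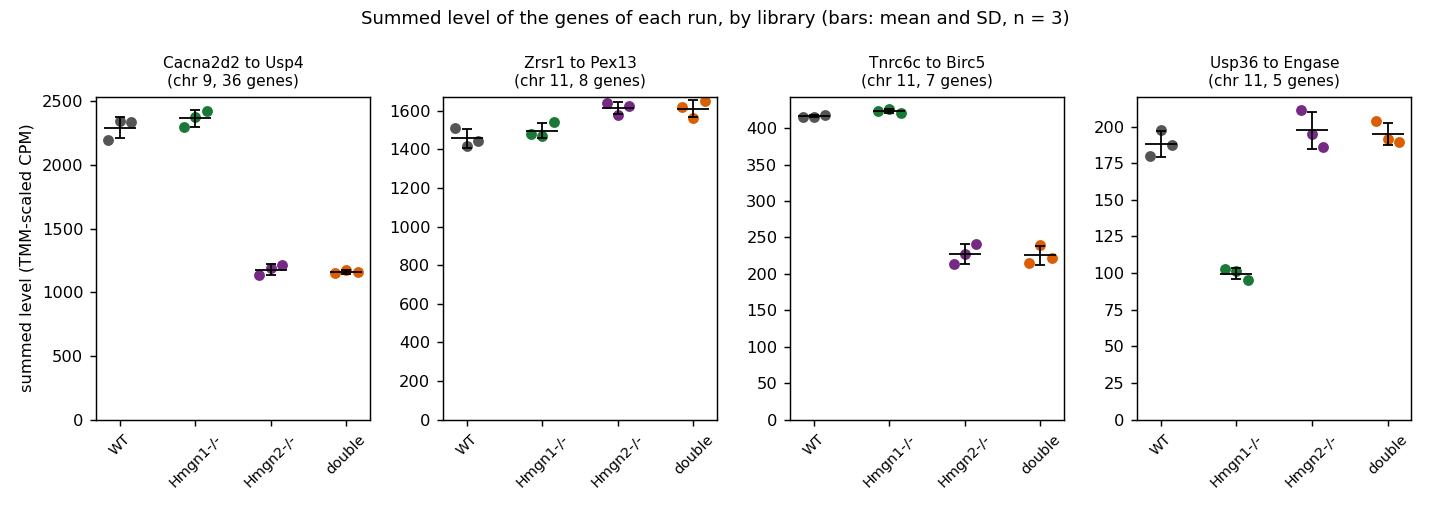
Summed TMM-scaled CPM of the tested genes of each of the 4 runs in every library, with the mean and SD of each genotype (n = 3). The Hmgn2-/- line and the double knockout share the low level at Cacna2d2 to Usp4 and at Tnrc6c to Birc5, while at Usp36 to Engase only the Hmgn1-/- libraries are low.

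The remaining run, from Zrsr1 (start 22972005) to Pex13 (end 23665883) near the other end of chromosome 11, was looser and held no DEG. Of its 8 tested genes 4 had an adjusted p under 0.05 by edgeR, 2 of them under 0.01, and all 8 log2 FCs were positive with a median of 0.41. Pex13, a peroxisomal import gene, stood at 41.7, 41.1 and 43.2 CPM in Hmgn1-/- mESCs and at 63.4, 72.7 and 72.3 CPM in Hmgn2-/- mESCs (log2 FC 0.73, SE 0.08, adjusted p = 0.0017 by edgeR's quasi-likelihood test after Benjamini-Hochberg adjustment). Zrsr1 had a log2 FC of 0.85, Ahsa2 of 0.62 and 0610010F05Rik of 0.58. Between them lay Cct4 (0.06), Xpo1 (0.06) and Usp34 (0.08), so that the run was not a continuous shift. The summed level of the run, dominated by Cct4 and Xpo1, had a ratio of only 1.08.

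Imprinted genes, which are transcribed from the maternal or the paternal copy according to DNA methylation laid down in the germ line, made up the next group. Of 66 listed genes 52 were tested, and 4 were DEGs by edgeR, 2 higher and 2 lower in Hmgn2-/- mESCs, where 0.176% of all genes were DEGs. An adjusted p under 0.01 was reached by 6 (0.352% of all genes) and one under 0.05 by 10 (0.469% of all genes). The genotypes did not overlap in 17 of the 52 (32.7%, where all tested genes gave 8.07%). At an unadjusted p under 0.05 there were 10 higher and 4 lower, where all genes gave 3.20%. The median log2 FC was -0.01 (from -0.04 to 0.05 with single libraries left out), and the median size of the log2 FC was 0.15, beside 0.07 over all genes tested.

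Grb10, a growth-restricting adaptor of insulin receptor signalling, differed most among the well-measured genes. It stood at 394, 407 and 408 CPM in Hmgn1-/- mESCs and at 37.8, 36.6 and 29.2 CPM in Hmgn2-/- mESCs, with no overlap (log2 FC -3.54, SE 0.10, adjusted p = 4.0e-08 by edgeR's quasi-likelihood test after Benjamini-Hochberg adjustment). WT mESCs had 335, 305 and 320 CPM and the double knockout 44.5, 39.0 and 40.5 CPM. The low level was therefore that of the Hmgn2-/- line and its descendant. The 6 tested genes nearest to Grb10, among them Ddc at -0.25 and Cobl at 0.04, had no adjusted p under 0.05 and log2 FCs of -0.63 to 0.04.

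Peg13, a noncoding RNA transcribed from within an intron of Trappc9, was nearly missing in the same libraries. It had 280 counts over the 3 Hmgn1-/- libraries and 2 over the 3 Hmgn2-/- libraries, a ratio of 141 with a 95% counting interval of 38.7 to 1170. Its levels were 4.14, 3.77 and 4.26 CPM against 0.038, 0 and 0.060 CPM, with 2.56, 2.21 and 2.22 CPM in WT mESCs and 0.032, 0.136 and 0 CPM in the double knockout. The fitted log2 FC was -6.89 (SE 0.41, adjusted p = 2.7e-05 by edgeR's quasi-likelihood test after Benjamini-Hochberg adjustment) and depends on the prior count. Its host gene Trappc9 had 26.2 CPM in Hmgn1-/- and 27.9 CPM in Hmgn2-/- mESCs, a log2 FC of 0.09.

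Nnat and Peg10 were low in the other line. Nnat, which encodes the membrane protein neuronatin and lies in an intron of Blcap, stood at 1.07, 1.10 and 2.11 CPM in Hmgn1-/- mESCs and at 13.9, 15.9 and 13.1 CPM in Hmgn2-/- mESCs (log2 FC 3.34, SE 0.22, adjusted p = 3.6e-05 by edgeR's quasi-likelihood test after Benjamini-Hochberg adjustment). WT mESCs had 12.8, 11.4 and 10.2 CPM, and the double knockout, whose Hmgn1 is edited as well, had 12.9, 11.6 and 10.8 CPM. The low level of Nnat was thus found in the Hmgn1-/- line and not in the other line with an edited Hmgn1. Blcap itself had a log2 FC of -0.01. Peg10, a retrotransposon-derived gene needed in the placenta, stood at 228, 219 and 213 CPM against 562, 495 and 356 CPM (log2 FC 1.10, SE 0.14, adjusted p = 0.0028, same test). WT mESCs spread from 262 to 519 CPM. Its call was lost without any single library other than Hmgn2-/- replicate 3, at log2 FCs of 1.12, 1.10 and 1.08 without Hmgn1-/- replicates 1, 2 and 3 and of 0.95 and 1.06 without Hmgn2-/- replicates 1 and 2. Sgce, transcribed away from Peg10 from a shared start region and imprinted with it, had a log2 FC of 1.17 (SE 0.21, adjusted p = 0.047, same test). With the replicate number as a block Sgce was a DEG, which made 5 in the imprinted list, and it was also a DEG by DESeq2.

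Genes and the hosts they lie in gave a further view of these loci. Mcts2, a retrogene in an intron of H13, stood at 18.8 to 21.0 CPM in the Hmgn1-/- libraries and at 30.5, 35.5 and 44.6 CPM in Hmgn2-/- mESCs (log2 FC 0.91, SE 0.13, adjusted p = 0.010 by edgeR's quasi-likelihood test after Benjamini-Hochberg adjustment). H13, which encodes signal peptide peptidase, went the other way, from 68.7, 72.4 and 76.6 CPM to 44.6, 49.0 and 48.0 CPM (log2 FC -0.62, SE 0.08, adjusted p = 0.0040, same test). In WT mESCs Mcts2 stood at 24.7, 24.1 and 24.3 CPM and H13 at 59.4, 64.9 and 66.4 CPM, between the lines for both genes. Zrsr1, a retrogene in an intron of Commd1, had a log2 FC of 0.85 (SE 0.11, adjusted p = 0.0030, same test) and Commd1 one of 0.02. Nap1l5, in an intron of Herc3, had a log2 FC of -2.85 (SE 0.51, adjusted p = 0.043, same test) on levels under 1 CPM, and Herc3 one of -0.15. Because reads of a gene inside an intron of another cannot be assigned by position alone where strand use is unknown, the values of these pairs may share reads.

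Further members of the list had smaller values or wide intervals. Igf2 had a log2 FC of 0.79 (adjusted p = 0.024 by edgeR's quasi-likelihood test after Benjamini-Hochberg adjustment), with 10.6 CPM in Hmgn1-/-, 18.2 CPM in Hmgn2-/- and 72.4 CPM in WT mESCs. Zdbf2 had a log2 FC of 0.62 (interval 0.29 to 0.94) and the cell cycle inhibitor gene Cdkn1c one of 0.35 (0.14 to 0.56), and in these 3 genes the libraries of the genotypes did not overlap. Mest had a log2 FC of 0.00 (interval -0.18 to 0.19), Slc38a4 of 0.03 (-0.16 to 0.22), Igf2r of 0.02 (-0.30 to 0.35), Meg3 of -0.15 (-0.35 to 0.05) and Peg3 of -0.03 (-0.49 to 0.43). The list of DNA methylation and imprint maintenance genes had 14 tested members. Of these, 0 were DEGs by edgeR or DESeq2 (0.176% of all genes by edgeR). An unadjusted p under 0.05 was found in 0 of them (3.20% of all genes). The intervals of all 14 lay between -1 and 1. Among the 14 the log2 FC ran from 0.12 for Dnmt3a (-0.06 to 0.30) to -0.32 for Dppa3 (-0.71 to 0.07). With single libraries left out Dppa3 moved between -0.56 and -0.19.

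**Figure D5:**
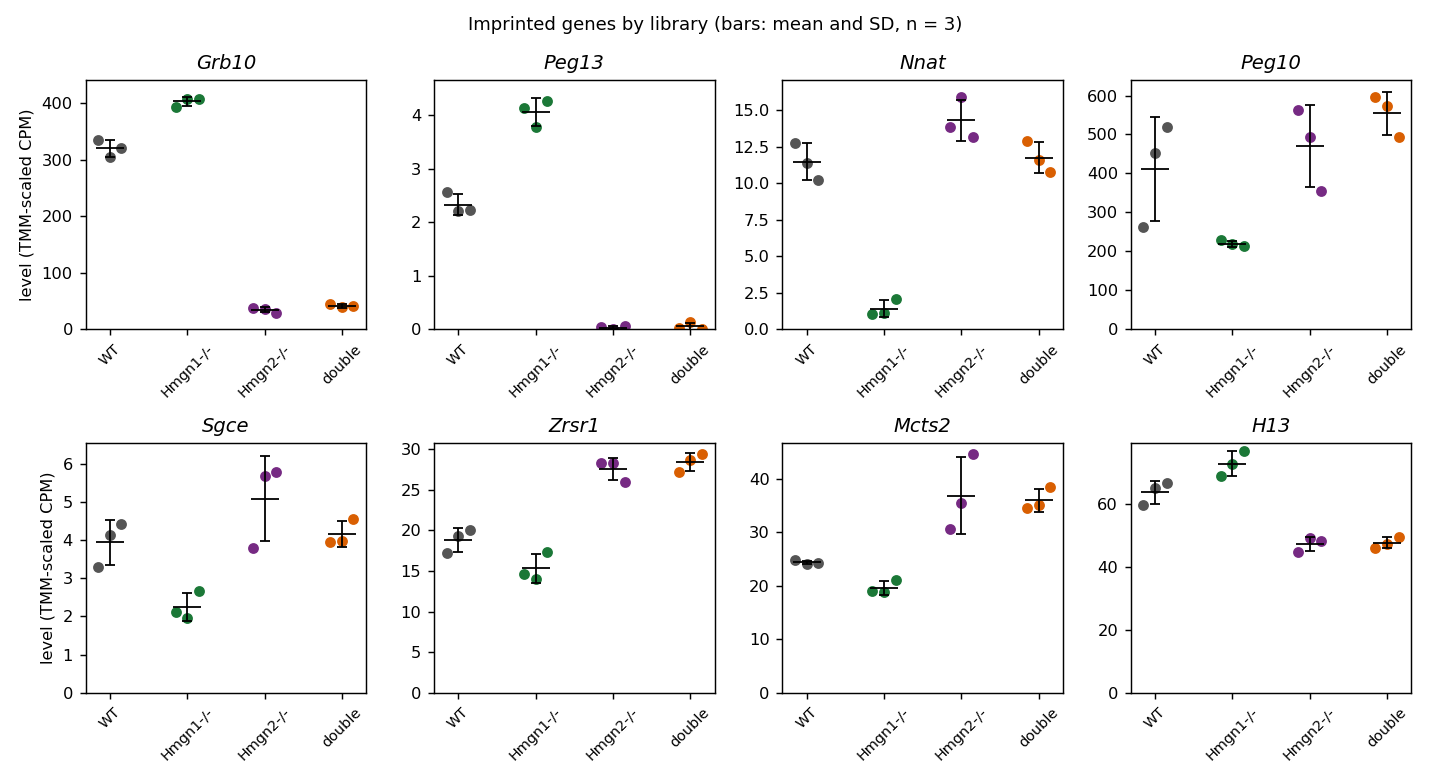
TMM-scaled CPM of 8 imprinted genes in every library of the 4 genotypes, with mean and SD (n = 3). Grb10 and Peg13 are low in Hmgn2-/- and double knockout libraries, Nnat and Peg10 are low in Hmgn1-/- libraries, and Mcts2 and H13 move in opposite directions.

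Promoters of Nnat and Grb10 are shown because loci of this kind are read through the methylation of CG pairs. They run from 250 bases before to 50 after the start in RefSeq's GRCm38.p6 annotation, 5' to 3' on the gene's strand, and capitals mark TGCCGC or its reverse complement GCGGCA, the core of the sequence that the imprint-protecting factor ZFP57 recognizes. Grb10 has a pair of annotated starts, and Nnat has 1. Peg10 and Peg13, the other imprinted DEGs, have no window in the promoter table used here.
Nnat promoter: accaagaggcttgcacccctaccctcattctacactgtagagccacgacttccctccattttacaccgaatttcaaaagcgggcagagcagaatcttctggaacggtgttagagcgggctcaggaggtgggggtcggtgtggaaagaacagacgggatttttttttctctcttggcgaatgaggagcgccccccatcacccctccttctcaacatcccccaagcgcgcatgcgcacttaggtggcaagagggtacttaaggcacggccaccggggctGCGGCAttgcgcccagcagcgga
Grb10 upstream promoter: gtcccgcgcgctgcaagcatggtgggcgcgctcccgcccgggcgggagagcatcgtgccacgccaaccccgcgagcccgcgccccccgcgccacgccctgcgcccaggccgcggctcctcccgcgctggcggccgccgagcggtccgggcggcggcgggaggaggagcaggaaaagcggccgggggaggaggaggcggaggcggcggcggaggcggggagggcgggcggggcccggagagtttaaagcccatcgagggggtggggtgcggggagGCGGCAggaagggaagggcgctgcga
Grb10 downstream promoter: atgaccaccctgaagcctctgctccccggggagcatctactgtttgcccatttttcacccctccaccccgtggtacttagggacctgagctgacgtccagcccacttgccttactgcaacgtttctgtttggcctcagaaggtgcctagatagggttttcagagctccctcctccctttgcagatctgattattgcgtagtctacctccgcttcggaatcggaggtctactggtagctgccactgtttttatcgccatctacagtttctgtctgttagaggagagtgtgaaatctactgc
The Nnat window (chr2:157559828-157560127, plus strand) held 1 match and 17 CG pairs. The upstream Grb10 window (chr11:12037371-12037670, minus strand) held 1 match and 45 CG pairs, and the downstream window (chr11:12027922-12028221) held 0 and 9. Over all 32851 promoter windows of this length, 11.6% held the motif on either strand and the median number of CG pairs was 7. The windows of H13 and Zrsr1 held 0 matches, with 21 and 10 CG pairs. A match is a description of letters and not of binding, and no methylation was measured in these libraries.

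Chromosome X held 2 DEGs among its 469 tested genes, and 6 genes there had an adjusted p under 0.05 by edgeR, beside 0.176% and 0.469% of all genes. The chromosome's median log2 FC was 0.00. Dock11, an activator of the small GTPase CDC42, stood at 1.96, 1.96 and 1.97 CPM in Hmgn1-/- mESCs and at 15.6, 10.8 and 11.2 CPM in Hmgn2-/- mESCs (log2 FC 2.68, SE 0.18, adjusted p = 4.4e-05 by edgeR's quasi-likelihood test after Benjamini-Hochberg adjustment). The WT libraries ranged from 18.6 to 20.9 CPM and those of the double knockout from 11.7 to 15.5 CPM, so that the Hmgn1-/- line was by far the lowest. Hmgn2-/- mESCs also stood below WT mESCs without overlap, at a log2 FC of -0.62. The 6 tested genes nearest to Dock11, those on the proximal side more than 12 Mb away, had log2 FCs of -0.97 (Klhl13) to 0.63 (Slc6a14), 1 of them with an adjusted p under 0.05. Klhl13, a substrate adaptor for CUL3 ubiquitin ligases, was low in both lines, at 45.1, 57.8 and 55.9 CPM in Hmgn1-/- and 28.4, 28.9 and 23.4 CPM in Hmgn2-/- mESCs beside 255, 274 and 271 CPM in WT mESCs. Between the lines its log2 FC was -0.97 (SE 0.12, adjusted p = 0.0024, same test).

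Erdr1, the other DEG of chromosome X, was the only DEG that stood above WT in both lines. Its level was 148, 146 and 148 CPM in WT mESCs, 194, 204 and 186 CPM in Hmgn1-/- mESCs and 438, 409 and 454 CPM in Hmgn2-/- mESCs (log2 FC 1.16, SE 0.07, adjusted p = 3.1e-05 by edgeR's quasi-likelihood test after Benjamini-Hochberg adjustment). Erdr1 lies in the pseudoautosomal region in near-identical copies that could share reads, so its value is uncertain. Mid1, at the edge of that region, had a log2 FC of 0.64 (SE 0.09, adjusted p = 0.0072, same test), from 215, 228 and 194 CPM to 365, 326 and 301 CPM. D7Ertd715e, the DEG outside every group above, matched RefSeq as a synonym of Snhg14, the long noncoding host transcript that runs antisense through Ube3a in an imprinted domain of chromosome 7. It stood at 28.6, 32.1 and 33.3 CPM in Hmgn1-/- and at 70.0, 58.1 and 69.8 CPM in Hmgn2-/- mESCs, with 54.5, 43.8 and 47.2 CPM in WT mESCs (log2 FC 1.07, SE 0.10, adjusted p = 0.00041, same test). Ube3a, which overlaps it, had a log2 FC of -0.04 (-0.42 to 0.35), and Snord64, which overlaps it too, had 0.65 (-0.14 to 1.43). The 6 tested genes nearest to D7Ertd715e had log2 FCs of -0.29 (Atp10a) to 0.81 (Magel2, interval 0.18 to 1.45). None of these 6 had an adjusted p under 0.05.

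The DEGs were then placed relative to WT mESCs, in fits that share libraries with the direct comparison. Against WT mESCs, 832 of 13917 genes were past the same threshold in Hmgn1-/- mESCs (5.98%) and 724 of 14047 in Hmgn2-/- mESCs (5.15%). Of the 24 DEGs between the lines, 4 were past it in Hmgn1-/- mESCs only, namely Hmgn1, Nnat, Dock11 and C1qtnf1. In Hmgn2-/- mESCs only there were 7, namely Hmgn2, Grb10, Peg13, Erdr1, Nprl2, Gnat1 and Gpx1. Slc38a3 was past it in both with opposite signs, and 12 in neither, 8 of them in the chromosome 9 run. This tally rests on the fold limit, and without it 12 of the 24 passed in Hmgn1-/- and 17 in Hmgn2-/- mESCs in place of 5 and 8. Gnai2, for instance, had a log2 FC of -0.89 in Hmgn2-/- against WT mESCs (adjusted p = 2.6e-05 by edgeR's quasi-likelihood test after Benjamini-Hochberg adjustment). By their means on a log scale, 16 DEGs were farther from WT mESCs in Hmgn2-/- and 8 in Hmgn1-/- mESCs. D7Ertd715e, counted among the 8, would change sides on plain CPM (48.5 in WT, 31.4 in Hmgn1-/- and 66.0 in Hmgn2-/- mESCs).

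At most of these DEGs, though not at every gene, the double knockout stood with its parent line. Primitive endoderm markers summed to 114, 117 and 101 CPM in the double knockout and to 60.7, 57.7 and 40.1 CPM in Hmgn2-/- mESCs. For 23 of the 24 DEGs the mean of the double knockout was nearer to Hmgn2-/- than to Hmgn1-/- mESCs, Hmgn1 being the exception. Against Hmgn1-/- mESCs 70 of 13710 genes were past the threshold (0.511%), among them 20 of the 24. The libraries of that comparison did not overlap in all 24 DEGs, and in 2060 of its 13710 genes (15%). Against Hmgn2-/- mESCs 6 of 13816 genes were past it (0.0434%), among them 1 of the 24, Hmgn1 itself. There the libraries did not overlap in 5 of the 24 and in 1406 of 13816 genes (10.2%). Nnat, Dock11, Usp36 and C1qtnf1, low in the Hmgn1-/- line, thus stood near the Hmgn2-/- level in the double knockout, in which Hmgn1 itself stood at 21.5, 19.9 and 21.4 CPM.

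Genes of the study's lineages and of pluripotency came next. Pou5f1 stood at 1786, 1797 and 2022 CPM in Hmgn1-/- mESCs and at 1647, 1830 and 2167 CPM in Hmgn2-/- mESCs, a log2 FC of 0.01 (interval -0.21 to 0.24). The log2 FC was -0.14 for Sox2 (-0.28 to 0.00), -0.19 for Nanog (-0.35 to -0.03), -0.10 for Nes (-0.31 to 0.12) and -0.49 for Pax6, a neural regulator (-0.80 to -0.17). It was 0.37 for Gata6 (-0.06 to 0.80), 0.29 for Sox17 (-0.09 to 0.67) and 0.23 for Pdgfra (-0.15 to 0.61). All 3 are in the primitive endoderm marker list used here, whereas the study counts Pdgfra as a mesoderm gene. Several of these values depended on single libraries. With each left out in turn Gata6 moved between 0.23 and 0.55, Sox17 between 0.09 and 0.40, and Pdgfra between 0.12 and 0.40. Nes moved between -0.17 and -0.01, and Pou5f1 took both signs, between -0.10 and 0.10. In Hmgn2-/- replicate 3, Gata6 (7.91 CPM) lay within the range of the Hmgn1-/- libraries and Pdgfra (7.73 CPM) below it. Kdr did not pass the filter on low counts. None of the 8 tested was a DEG by edgeR or DESeq2, where 0.176% of all genes were DEGs. Of the 8, 2 had an unadjusted p under 0.05 (Nanog and Pax6), where all genes gave 3.20%, and all 8 intervals lay between -1 and 1. Of 20 genes of core and naive pluripotency 0 were DEGs by either tool (0.176% of all genes by edgeR) and 2 had an unadjusted p under 0.05 (3.20% of all genes), with a median log2 FC of -0.07 (from -0.13 to -0.04 with single libraries left out).

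The other gene lists held no DEG either. Of 26 lists, 24 had 0 DEGs by edgeR and by DESeq2, where 0.176% of all genes were DEGs by edgeR. Among these lists, that of the Y-linked genes had 0 of its 10 genes tested. Together these lists had 315 tested genes, 21 of them (6.67%) with an unadjusted p under 0.05, beside 3.20% over all genes. The interval lay between -1 and 1 for 279 of the 315 (88.6%, beside 91.2% over all genes). Polycomb repressive complex 2 genes had a median log2 FC of 0.02, histone acetyltransferases, deacetylases and H2A.Z -0.04, linker histones -0.03, p53 targets 0.00 and heat shock genes 0.05. With single libraries left out these medians ran from 0.00 to 0.03, -0.05 to 0.00, -0.17 to 0.03, -0.01 to 0.04 and 0.02 to 0.07, in that order. Over all genes tested the median was 0.00. The linker histones were poorly measured. Only 7 of the 15 listed were tested, and 3 of the 7 averaged 50 counts or more. Their intervals lay between -1 and 1 in 3 of the 7.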

How the data were processed

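The authors selected poly-A RNA, aligned reads to mm10 with STAR and deposited counts, the number of reads on each of 23412 genes per library; the counting program, its annotation and its use of the strand are not given in the sources used here. Condition and replicate came from the sample labels. Members and gene lists were chosen with earlier results of these data known. The 6 libraries were fitted with edgeR 4.0.16 in R 4.3.3: TMM normalization, default filter on low counts, quasi-likelihood test, Benjamini-Hochberg adjustment over 13648 genes. Intervals used the fit's standard errors and degrees of freedom. Each side comparison had its own fit of 6 libraries. Same-numbered libraries of the lines deviated together from their group means (correlations across genes 0.218, 0.107 and 0.228). The numbers were therefore taken to pair the libraries, on the data's evidence alone. The main fit and the side fits left this pairing out, and only the alternative with the replicate number as a block used it. No pair of libraries agreed within sampling noise.

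Alternatives were DESeq2 1.42.0, scaling by upper quartile or RLE, a looser filter (1 count anywhere) and a stricter one (10 counts in each library), a joint fit of all 12 libraries, thinned counts, the replicate number as a block, glmTreat, a threshold of 0.05 on the adjusted p, dropping the fold limit, and leaving out each library in turn. The runs and their medians were chosen after seeing the data. Named by rule were the edited genes, the other Hmg genes, the lineage genes, every DEG, the 10 largest changes with an adjusted p under 0.01 short of the fold limit, list members with an adjusted p under 0.01, and the highest and lowest member of each list; others were named after their values were seen. Of the gene names, 21563 matched a RefSeq symbol of GRCm38.p6, 1670 a synonym and 179 none; exons came from GENCODE. The edgeR fit, plain, with the replicate block and with glmTreat, and the DESeq2 fit were tested on simulated counts. The other steps were not.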

Additional observations from a re-analysis of the deposited data

How the results depend on the processing

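The count of 24 DEGs moved most with the choice of threshold: without the fold limit it was 48, and with glmTreat, which tests against a log2 FC of 1, it was 7. With each library left out in turn it ran from 17 to 28, and the count of genes with an interval between -1 and 1 ran from 11927 to 12208 beside 12453. DESeq2 gave 30 DEGs that held all 24. With the replicate number as a block there were 30 DEGs, all 24 among them, with Tmc8, Sgce, Cacna2d2, Sema3b, Sema3f and Fmr1nb added, and 12558 genes inside the interval. With the block, the DEGs also past the threshold were 5 in Hmgn1-/- and 7 in Hmgn2-/- against WT mESCs (5 and 8 without it), 20 in the double knockout against Hmgn1-/- and 1 against Hmgn2-/- mESCs (20 and 1 without it). Of the 24 DEGs, those also past the threshold against WT mESCs rose without the fold limit from 5 to 12 in Hmgn1-/- and from 8 to 17 in Hmgn2-/- mESCs. Leaving out single libraries gave 4 to 6 and 6 to 8 there, 19 to 22 for the double knockout against Hmgn1-/- mESCs and 1 to 1 against Hmgn2-/- mESCs. The 16 lower DEGs were 10 without Hmgn2-/- replicate 2, 35 without the fold limit and 3 with glmTreat. The 12 DEGs of the chromosome 9 run were 6 without Hmgn2-/- replicate 2, 7 without Hmgn1-/- replicate 2, 24 without the fold limit and 1 with glmTreat. Under the other alternatives the DEG total and the interval count kept within 1.5 times their values, and no call of a named gene was reversed. Of the 89 named genes, 13 had a log2 FC that took both signs over the alternatives, none of them a DEG. Looser or stricter thresholds change the counts by construction. For the others the cause was not tested. With 3 cultures of 1 clone per genotype, low genes have wide intervals.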

Other observations

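Genes outside the runs, the imprinted list and chromosome X that reached an adjusted p under 0.05 were few, and they were named after their values were seen. Smoc1, a secreted calcium-binding matrix protein that modulates BMP signalling, stood at 29.0, 30.8 and 29.2 CPM in Hmgn1-/- and at 15.7, 17.2 and 15.5 CPM in Hmgn2-/- mESCs, without overlap (log2 FC -0.87, SE 0.09, adjusted p = 0.00086 by edgeR's quasi-likelihood test after Benjamini-Hochberg adjustment). In the double knockout it stood at 22.0, 22.1 and 20.5 CPM, between the single knockouts. Tfap4, a transcription factor of the AP-4 type, stood at 33.7, 34.4 and 31.5 CPM against 47.5, 49.2 and 49.3 CPM (log2 FC 0.55, SE 0.08, adjusted p = 0.0089, same test), with 43.8, 47.9 and 45.4 CPM in WT mESCs. Galnt6, an enzyme that starts O-linked glycan chains, had a log2 FC of -0.83 (adjusted p = 0.020, same test), Trp53inp2 of -0.74 (adjusted p = 0.020, same test) and Trh, the precursor of thyrotropin-releasing hormone, of -0.56 (adjusted p = 0.020, same test). On chromosome X, Fmr1nb had 1.25 (adjusted p = 0.020, same test) and Rnf128 0.91 (adjusted p = 0.022, same test), both lower than WT mESCs in each line.

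Some lists leaned to a side without a DEG. Of 14 tested keratin and trophoblast genes 12 had a positive log2 FC, as had 51.8% of all genes tested. Their median was 0.39 beside 0.00 over all genes. Among the 14, 0 were DEGs by edgeR or DESeq2 and 5 had an unadjusted p under 0.05, where all genes gave 3.20%. Krt8, a keratin of simple epithelia, stood at 26.4, 22.7 and 43.0 CPM in Hmgn1-/- and at 43.0, 44.9 and 68.4 CPM in Hmgn2-/- mESCs, with replicate 3 the highest of each group, and its log2 FC was 0.76. Krt7 had a log2 FC of 0.87 (interval 0.41 to 1.33), the highest among members that averaged 50 counts or more. The lowest among them was Tead4, at 0.07 (-0.15 to 0.30). Of the trophoblast markers, Cdx2 had a log2 FC of 0.54, Tfap2c of 0.09 and Gata3 of -0.25. The interval lay between -1 and 1 for 7 of the 14 listed genes tested. With single libraries left out the median of the list lay between 0.31 and 0.50. Of 23 tested genes of the primitive and visceral endoderm 19 had a positive log2 FC, with a median of 0.16 that moved between 0.06 and 0.31 when single libraries were left out. Among the 23, 0 were DEGs by edgeR or DESeq2 (0.176% of all genes by edgeR), and 1 had an unadjusted p under 0.05 (3.20% of all genes). Other lists leaned to the same side. A positive log2 FC was found in 15 of 18 heat shock genes, 12 of 15 smooth muscle and YAP target genes and 7 of 9 Hox genes. Of these, 0, 0 and 1 had an unadjusted p under 0.05. Further lists leaned to the lower side. Among them, a negative log2 FC was found in 14 of 20 core and naive pluripotency genes, 5 of 7 linker histone genes and 12 of 19 clustered protocadherins. There 2, 0 and 0 had an unadjusted p under 0.05.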
